A study of Caenorhabditis elegans with 4 samples.

Results

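The domains described here are stretches of chromosome III that were called as enriched for RNA polymerase II in both of 2 replicate chromatin immunoprecipitation and sequencing (ChIP-seq) libraries from Caenorhabditis elegans embryos. A domain is a peak of replicate 1 that shares 1 bp or more with a peak of replicate 2. By this rule chromosome III held 754 domains, of 3852 such domains on the 6 nuclear chromosomes. The antibody, 8WG16, is a mouse monoclonal raised against wheat germ polymerase that binds chiefly the unphosphorylated form of the C-terminal repeat domain. The 2 precipitated samples (replicates 1 and 2) and 2 input DNA samples came from early embryos of the wild-type Bristol strain N2, grown at 20 °C as a mixed population of males and hermaphrodites, with no allele or treatment that sets any sample apart. Each library is from whole embryos, so a peak averages over all their cells. Peak lists of both precipitated samples and a series-wide list were analysed, and the input samples entered no comparison. Whether the 2 replicates stem from separate embryo preparations is not stated in the labels, so the spread between them may be technical.

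RNA polymerase II transcribes protein-coding genes. Its C-terminal domain is unphosphorylated when the enzyme is recruited to a promoter and becomes phosphorylated as it starts and elongates, so 8WG16 signal is often strongest near gene starts but can extend along genes that carry much polymerase. Worm genes are compact and lie close together, many of them in operons read from a shared promoter, and on the autosomes essential and widely expressed genes are concentrated in the central part. Chromosome III also carries the Hox cluster, whose genes pattern the body axis. Genes under the domains were not analysed here, because the only gene table used here is of another build than the lists. Positions below are in the build of the lists, WormBase WS220. No genome sequence of that build was used, so no sequence is shown.

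Chromosome III was taken to span 13.8 Mb, from base 1 to the last listed peak end. Its 754 domains came from 825 replicate 1 peaks, of which 91.4% had a replicate 2 counterpart (exact 95% binomial interval 89.3 to 93.2%, counting error only), beside 88.7% over all 6 chromosomes. Counted the other way, 654 of 1016 replicate 2 peaks (64.4%, 61.3 to 67.3%) had a replicate 1 counterpart, beside 61.4% over all chromosomes. These shares are what the rule selected on and are given as a description. There is a single group of 2 libraries, and positions along a chromosome are not replicates of a condition, so no test was made of any value below. Where both replicates are given, the difference between them is the only measure of error. Sequencing depth is unknown, since the lists give positions and no read numbers.

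The domains covered 2.58 Mb, or 18.7% of the chromosome, at 54.7 domains per Mb. Chromosome I was nearest to it, with 52.1 domains per Mb covering 17.6%, and chromosome II followed with 44.0 per Mb covering 14.9%. All listed peaks numbered 59.9 per Mb on III and 61.4 on I in replicate 1, and 73.7 per Mb on III and 73.8 on I in replicate 2. So III stood above I by domains and level with or below it by the peaks of each list. Bases found under peaks of both lists came to 2.40 Mb on III, which made up 87.6% of what replicate 1 covered and 66.7% of what replicate 2 covered.

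Most domains were a few kilobases wide and a minority of broad ones held much of the covered sequence. The median width was 2307.5 bp (interquartile range 1507 to 4286 bp), beside 2291.5 bp over the domains of all 6 chromosomes, and the range ran from 917 to 29687 bp. Domains of up to 1.5 kb numbered 187 (24.8%) and held 8.89% of the domain bases. At the other end 115 domains of 5 to 10 kb and 29 domains over 10 kb made up 15.3% and 3.85% of the number and held 30.7% and 15.6% of the bases. So the 144 domains over 5 kb took a share of the covered sequence well above their share of the count.

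Peaks without a counterpart on chromosome III were narrower than those with one in each replicate. The replicate 1 peaks found in both had the median of 2307.5 bp given above, and the 71 found in replicate 1 alone had a median of 1336 bp. In replicate 2 the 654 peaks with a counterpart had a median of 2984 bp, and the 362 alone had 1368 bp. A wider peak has more room to meet another, so width and overlap are not independent here. At the broad end the 2 replicates differed. In replicate 1, 4 of the 71 peaks without a counterpart were over 10 kb (5.63%), beside 3.85% of those with one. In replicate 2 it was 2 of the 362 (0.552%), beside 9.48% of those with one.

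**Figure D1:**
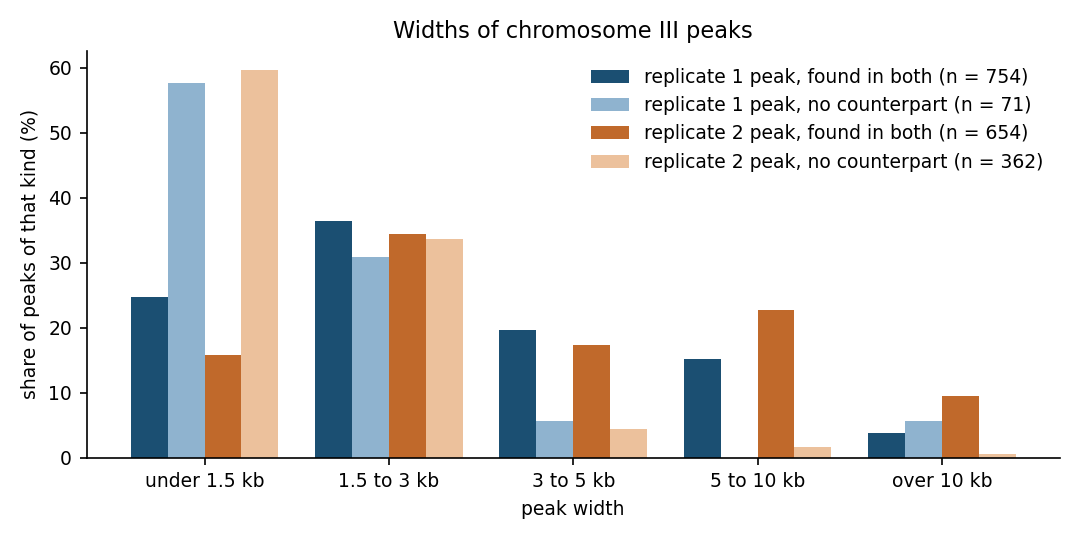
Share of chromosome III peaks (%) in each width class, for peaks of each replicate with and without a counterpart in the other list. Peaks of up to 1.5 kb made up 24.8% and 15.9% of the peaks with a counterpart in replicates 1 and 2, against 57.7% and 59.7% of those without one.

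The 5 widest domains lay in the centre and right of the chromosome. The widest, at III:12595169-12624855, measured 29687 bp in replicate 1. It met a 33746 bp peak of replicate 2, which ran on to 12628886 and also met the next domain. The series-wide list divided the widest domain into 6 peaks, the widest of them 16054 bp, which together covered 97.7% of it. The second, at III:10656752-10678559, measured 22191 bp in replicate 2 and 21808 bp in replicate 1, so its 2 widths nearly matched.

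The next 2 were each a single peak in both replicates. That at III:5701282-5719134 was 27505 bp in replicate 2 and 17853 bp in replicate 1, where its right edge lay further left. That at III:8157098-8174270 was 19321 bp in replicate 2 and 17173 bp in replicate 1. The narrowest of the 5, at III:11104622-11121489, was a single 16868 bp peak in replicate 1 but met 6 peaks of replicate 2, the outermost edges of which were at 11104954 and 11128324. Series-wide peaks in these 3 domains numbered 13, 9 and 12. Thus the same stretch could be called as an unbroken domain in one library and as several peaks in the other.

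Where a domain had a single counterpart that met no other domain, the 2 replicates mostly placed its edges within 500 bp of each other. There were 450 such pairs, 59.7% of the domains. Median widths in these pairs were 2611.5 bp in replicate 2 and 2177 bp in replicate 1, and the replicate 2 peak was the wider in 308 of them, with a median ratio of replicate 2 to replicate 1 of 1.10. The left edge differed by a median of 207 bp and the right edge by 209 bp, regardless of sign. Replicate 2 began further left, with a median start offset of -104.5 bp relative to replicate 1, and ended further right by a median of 81 bp. Both edges lay within 100 bp in 46 pairs (10.2%), within 500 bp in 245 (54.4%) and within 1000 bp in 346 (76.9%). Across the 450 pairs, Spearman's rho of the widths was 0.79. It is a description of 2 libraries over regions of a single chromosome that the rule chose for overlapping.

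The other domains were divided differently in the 2 lists. A replicate 2 peak joined 2 or more domains in 125 cases, and 280 domains lay under such a joining peak. The opposite also occurred, with 55 domains that met 2 or more replicate 2 peaks, up to 6 in the domain at 11104622 named above. On chromosome I, 230 of 786 domains lay under a joining peak, and on chromosome II 204 of 673. Pairs with a single counterpart on each side made up 59.7% of domains on III, 67.7% on I, 66.0% on II and 58.8% on X.

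Gaps between neighbouring domains ranged from 1 bp to 198199 bp, with a median of 3913 bp and an interquartile range of 792 to 20245 bp. The mean, 14776 bp, was far above the median. Of 753 gaps, 59 exceeded 50 kb, and these held 42.5% of all bases between domains. The 205 gaps under 1 kb (27.2%) held 0.596% of those bases. The median gap over all 6 chromosomes was 6338 bp. It was 4500 bp on I and 5768.5 bp on II, and it was widest on X, at 18083 bp.

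Many of the shortest gaps were not seen in replicate 2. A single replicate 2 peak spanned the whole gap in 110 of the 151 gaps under 500 bp (72.8%) and in 29 of 54 gaps of 500 bp to 1 kb (53.7%). From 1 to 2 kb it did so in 12 of 79, from 2 to 5 kb in 10 of 122, and above 5 kb in a single gap of 7846 bp. In all 162 of 753 gaps (21.5%) were spanned, with a median of 206 bp, and the 591 others had a median of 7167 bp. Spanned gaps were about as common on X (21.2%), and the remaining chromosomes ranged from 14.6% (IV) to 16.5% (II). Of gaps under 1 kb, 67.8% were spanned on III, within the range of the other chromosomes, 55.8% (I) to 77.7% (X). On III, joining the domains across spanned gaps left 592 stretches, of which 118 held 2 or more domains. This joining was chosen after the gaps were seen.

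**Figure D2:**
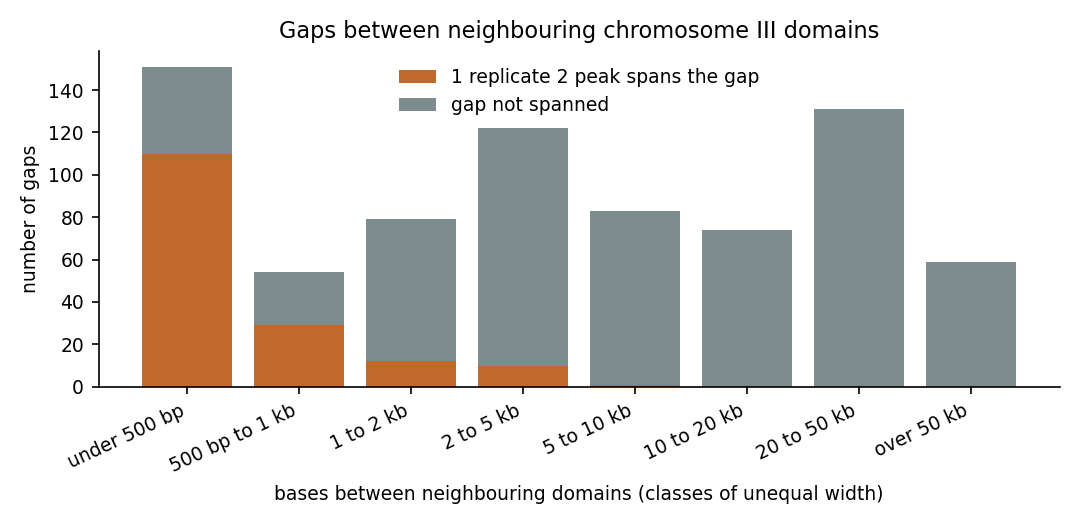
Number of gaps between neighbouring chromosome III domains by length class (classes of unequal width), split by whether a single replicate 2 peak spans the gap. Spanned gaps are mostly under 1 kb (139 of 162), and none of the 264 gaps over 10 kb is spanned.

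Longer gaps often held peaks that failed the rule. A replicate 2 peak without a counterpart lay in 38 of 74 gaps of 10 to 20 kb, in 80 of 131 gaps of 20 to 50 kb, and in 43 of 59 gaps over 50 kb. Such peaks meet no domain by definition, and a longer gap has more room for them. The rise with gap length is therefore a description only. Gaps over 50 kb without a complete series-wide peak numbered only 2, since 57 of 59 held one. On the chromosome as a whole 209 of the 362 replicate 2 peaks without a counterpart (57.7%) lay within 5 kb of a replicate 1 peak, and their median distance was 3728.5 bp.

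Domains were grouped into clusters, defined as runs of 3 or more domains with gaps of at most 5 kb. There were 96 clusters holding 422 of the 754 domains (56.0%). The share was 52.4% on I, 49.3% on II, 39.7% on IV and 34.7% on V, with the lowest, 24.3%, on X, an order of chromosomes that is also the order of domains per Mb. Of the 96 clusters 44 had 3 domains, 19 had 4 and 12 had 5, and the largest had 12. The median cluster spanned 17.2 kb. Together the clusters spanned 1.91 Mb, 13.9% of the chromosome, of which domains covered 75.5%.

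Clustered domains were about as wide as others, with a median of 2257.5 bp inside clusters and 2415.5 bp outside. Of the 29 domains over 10 kb, 16 were in clusters and 13 were not. The share of domains in clusters changed with how the signal was divided into peaks. After joining domains across gaps that a replicate 2 peak spanned, 244 of 592 stretches (41.2%) were in clusters, 64 in number. With all listed peaks it was 56.8% in replicate 1 and 65.6% in replicate 2.

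The largest cluster, at III:12527413-12576646, held 12 domains over 49234 bp, which covered 82.0% of it. The median gap inside it was 505 bp, replicate 2 listed 8 peaks there and the series-wide list 44. It shares a 250 kb window with the widest domain of the chromosome. The next, at III:11104622-11158484, held 10 domains over 53863 bp and began with the 16868 bp domain named above. Domains covered 89.8% of this cluster, the median gap was 142 bp, and replicate 2 listed 13 peaks there.

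Clusters of 8 domains numbered 5, and the first 3 by position lay left of the chromosome's middle. The one at III:4989759-5030453 was 76.2% covered and met 6 replicate 2 peaks. That at III:6347235-6391775 was 79.1% covered and also met 6. A close neighbour at III:6414594-6454231 was 72.9% covered and met 7. Series-wide peaks in these 3 clusters numbered 25, 34 and 15, so clusters of equal domain number differed in how many series-wide peaks they held.

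The outer parts of chromosome III were taken as 25% of its span on each side, 3.45 Mb each, and the right one held more domains than the left. The right outer part held 204 domains (59.2 per Mb) and the left 141 (40.9 per Mb), a ratio of right to left of 1.45. The centre, at 59.3 per Mb, was close to the right outer part. Domains covered 19.6% of the right outer part and 12.9% of the left, and 21.2% of the centre. Median widths were close, at 2209.5 bp on the right and 2159 bp on the left, beside 2413 bp in the centre.

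The difference in number was present in replicate 1 and small in replicate 2, while the difference in covered bases was present in both. Replicate 1 listed 238 peaks in the right outer part and 164 in the left, a ratio of 1.45. Replicate 2 listed 232 in the right and 219 in the left, a ratio of 1.06. Peaks covered 21.5% of the right outer part and 14.3% of the left in replicate 1, and 24.6% of the right and 18.4% of the left in replicate 2, ratios of 1.51 and 1.34. The series-wide list gave 960 and 833 peaks covering 20.5% and 14.4%.

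**Figure D3:**
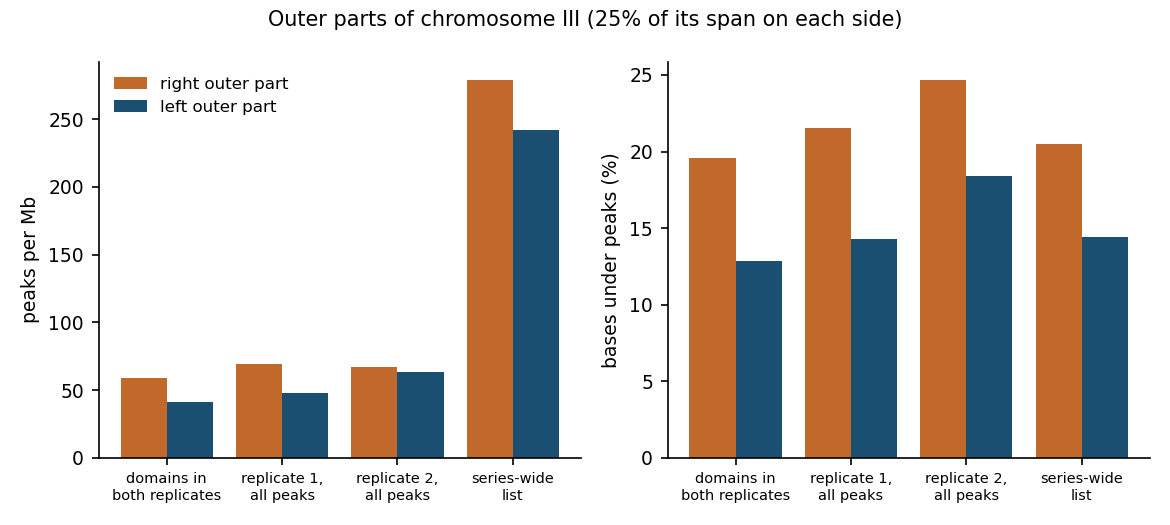
Peaks per Mb (left panel) and share of bases under peaks (right panel, %) in the right and left outer parts of chromosome III, for domains found in both replicates and for each list alone. Covered bases are higher in the right outer part in all 4 sets, by ratios of 1.53, 1.51, 1.34 and 1.42, whereas peaks per Mb in replicate 2 differ little (ratio 1.06).

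The left outer part held more replicate 2 peaks without a counterpart than the right. In the right outer part 174 of 232 replicate 2 peaks (75%) had one (exact 95% interval 68.9 to 80.4%). It was 134 of 219 in the left (61.2%, 54.4 to 67.7%) and 346 of 565 in the centre (61.2%, 57.1 to 65.3%). By this share the left was like the centre, and the right was higher than both. The intervals given here hold counting error only. Neighbouring peaks are not independent, so the intervals are no test of a difference between the sides. Peaks of replicate 2 alone numbered 58 on the right and 85 on the left, with medians of 1324.5 bp and 1328 bp. In the same order they numbered 80 and 85 on I, 70 and 61 on II, 60 and 95 on IV, 40 and 51 on V, and 99 and 90 on X. In replicate 1 the share with a counterpart on III was alike in the 2 outer parts, 85.7% on the right and 86.0% on the left. It was 96.7% in the centre (94.5 to 98.2%). The share was highest in the centre on the other chromosomes as well. On I it was 417 of 457 in the centre, 187 of 238 on the right and 182 of 230 on the left.

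The ratio of right to left in domains per Mb was 1.03 on chromosome I and 1.13 on II. It was 0.69 on IV and 0.86 on V, with 1.02 for X. The sides thus differed on chromosome IV as well, in the opposite direction, and there both replicates gave about the same value, 0.65 in replicate 1 and 0.66 in replicate 2. By covered bases the ratio for domains was 1.53 on III, 1.27 on II and 0.78 on IV.

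Long gaps accounted for much of the sequence without domains in the left outer part. Gaps over 50 kb numbered 14 in the right outer part and 19 in the left, and held 1.02 Mb and 1.86 Mb, or 36.9% and 63.2% of the bases between domains there. Gaps over 100 kb numbered 1 in the right outer part, 8 in the left and 1 in the centre.

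The 5 longest gaps of the chromosome were all in the left outer part. The longest ran over III:1627225-1825423 (198199 bp) and held 3 series-wide peaks, which covered 0.448% of it. The next ran over III:1220270-1411872 (191603 bp) and held 9. The gap at III:484211-639394 (155184 bp) held 10 peaks of replicate 2 alone and 36 series-wide peaks, which covered 7.52%. It was a gap by the rule but not an empty stretch in replicate 2.

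The remaining pair lay at III:2620377-2767165 (146789 bp, 4 peaks of replicate 2 alone) and III:1959609-2105020 (145412 bp, 2 such peaks). In replicate 2 taken alone the 5 longest gaps were also all in the left outer part. The 3 longest of them lay within 3 of those just named: III:1224581-1405552 (180972 bp), III:1627231-1778151 (150921 bp) and III:1959780-2100627 (140848 bp). In replicate 1 alone 4 of the 5 longest were in the left outer part, and the other was in the centre, at III:6729103-6868821 (139719 bp).

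In the 55 complete windows of 250 kb the number of domains ran from 3 to 27, with a median of 14 and a mean of 13.7 ± 4.98 (SD over windows). The coefficient of variation was 0.36, beside 0.42 on both I and II and 0.60 on V. In all listed peaks of III it was 0.33 in replicate 1 and 0.27 in replicate 2. The share of each window under domains ran from 1.62% to 41.4% with a median of 17.6%.

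Over the 55 windows, the median width of the domains did not follow their number (Spearman's rho -0.05), while the covered share followed the number closely (rho 0.84). Between the replicates, covered share by window correlated at rho 0.83 and the number of listed peaks at 0.53. These coefficients describe neighbouring stretches of a single chromosome in the same 2 libraries, and windows are not independent. The covered share of a window was thus more alike between the replicates than its peak number.

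The fullest window, III:12500001-12750000, held 27 domains that covered 41.4% of it, with 31 replicate 1 peaks, 27 replicate 2 peaks and 125 series-wide peaks. Next came III:5000001-5250000 and III:7000001-7250000 with 24 domains each, covering 28.7% and 27.3%. In each of these 2 windows every replicate 1 peak had a counterpart, with 24 of 24 in both. Over the whole centre, where both windows lie, 96.7% of replicate 1 peaks had one. The windows were picked for their many domains, which favours a high share. Replicate 2 listed 27 and 24 peaks there.

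The emptiest window, III:500001-750000, held 3 domains that covered 1.62%, although replicate 2 listed 13 peaks in it and replicate 1 listed 4. The next, III:1500001-1750000, held 5 domains covering 7.81%, with 8 replicate 1 and 10 replicate 2 peaks. The window III:3000001-3250000 held 6 domains covering 5.89%, with 8 and 14 peaks. A window in the centre, III:7500001-7750000, also held 6 domains, which covered 12.8% of it, with 7 replicate 1 and 14 replicate 2 peaks. In these 4 windows replicate 2 listed more peaks than replicate 1. It did so over the whole chromosome as well, with 1016 and 825 peaks and medians of 19 and 15 per window.

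**Figure D4:**
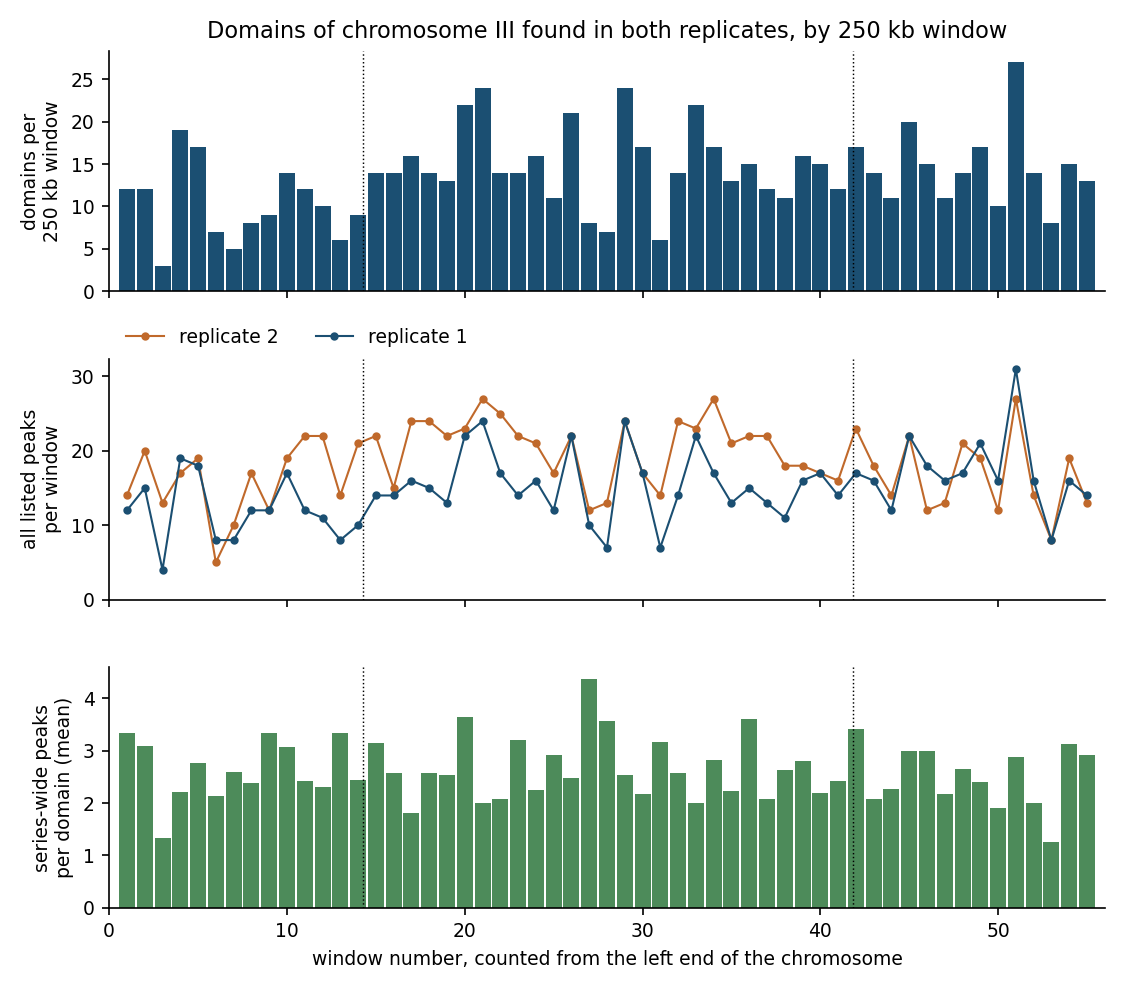
Chromosome III in 55 complete windows of 250 kb, numbered from the left end: domains found in both replicates (top), all listed peaks of each replicate (middle) and the mean number of series-wide peaks per domain (bottom). Dotted lines mark the outer parts. Domain number runs from 3 to 27, and series-wide peaks per domain from 1.25 to 4.38.

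The series-wide list divided most domains into shorter pieces. It was made from this series and is not independent of the replicate lists, so meeting it is no separate evidence for a domain. On chromosome III it held 3628 peaks, of which 1947 (53.7%) met a domain. A domain met 2.62 of them on average (median 2, highest 14), beside 2.48 on I and 2.38 on II. Of the 754 domains 248 met a single series-wide peak (32.9%), 202 met 2, 134 met 3, 169 met 4 or more (22.4%), and 1 met none. Series-wide peaks covered 74.4% of the domain bases.

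Wider domains held more series-wide peaks but fewer per kilobase, and their widest piece was longer. The mean number was 1.41 in domains of up to 1.5 kb, 2.12 at 1.5 to 3 kb, 3.04 at 3 to 5 kb, 4.30 at 5 to 10 kb and 6.41 over 10 kb. Per kilobase of domain the same classes held 1.15, 0.999, 0.785, 0.624 and 0.464 peaks. The widest piece in a domain had a median of 718 bp in the narrowest class and 7450 bp in the widest. The pieces covered 62.8% of the bases in the narrowest class and 88.1% in the widest. Across the 754 domains, Spearman's rho between width and the number of series-wide peaks was 0.60, a description in which longer stretches have more room for pieces.

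**Figure D5:**
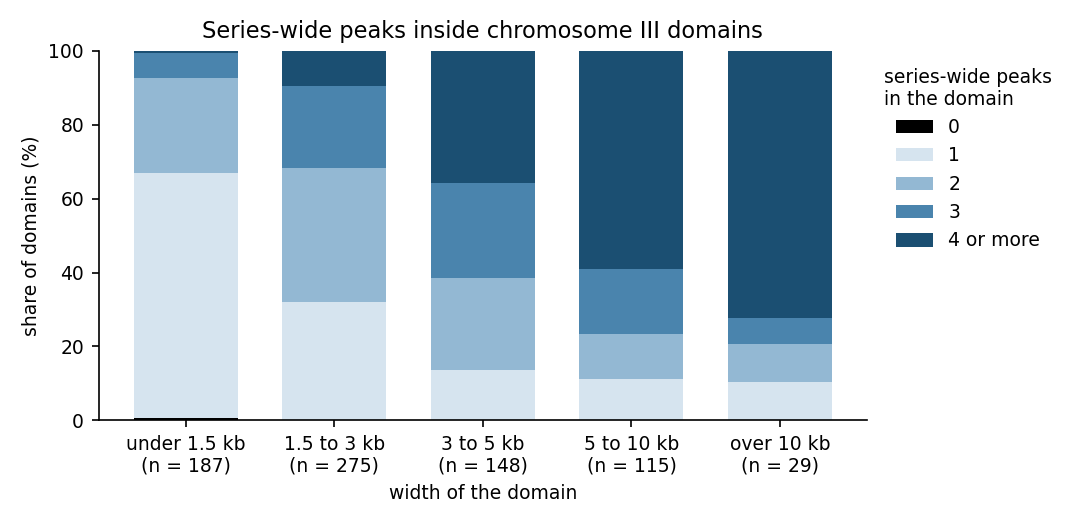
Share of chromosome III domains (%) with 0, 1, 2, 3 or at least 4 series-wide peaks, by width of the domain. A single series-wide peak was met by 66.3% of domains of up to 1.5 kb and by 10.3% of those over 10 kb, and 4 or more by 0.535% and 72.4%.

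The breaks between pieces were short. Between neighbouring series-wide peaks of a domain there were 1222 gaps with a median of 147 bp, and 1201 of them (98.3%) were under 1 kb. The median break was 124 bp in domains of up to 1.5 kb, 141 bp at 1.5 to 3 kb, 164 bp at 3 to 5 kb, 152 bp at 5 to 10 kb and 129 bp over 10 kb. The first series-wide peak began a median of 218 bp inside the left edge of the domain, and the last ended a median of 236 bp inside the right edge. Of the 144 domains over 5 kb, the widest series-wide peak was centred in the middle part of the domain in 91, in the left part in 24 and in the right part in 29, with the domain cut into 3 equal parts. This widest piece had a median of 3261 bp in domains of 5 to 10 kb and 7450 bp in those over 10 kb. The more of its domain a piece fills, the more its centre is held to the middle part. These counts therefore do not show a preferred position.

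The most divided domain, at III:6588551-6601882 (13332 bp), held 14 series-wide peaks with a median gap of 101 bp, the widest of them 5479 bp. The domains at III:4934002-4949865 (15864 bp) and III:5701282-5719134 (17853 bp) held 13 each, with median gaps of 150 and 109.5 bp. In the first of these the widest piece was 2673 bp, and in the other, also among the 5 widest domains, 6894 bp. So domains with nearly the same number of pieces differed in whether a long piece dominated them.

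The division of domains also varied along the chromosome. It is given below as a mean over the domains of each window. Its coefficient of variation is therefore not comparable with that of the number of domains. By 250 kb window the mean number of series-wide peaks per domain ran from 1.25 to 4.38 with a median of 2.57, and its coefficient of variation was 0.23. It did not follow the number of domains in the window (rho -0.01) and was higher where their median width was greater (rho 0.45). Domains of the right outer part met 2.57 series-wide peaks on average, those of the left 2.67 and those of the centre 2.63. The emptiest window had 1.33 per domain, the fullest had 2.89, and the windows with 24 domains had 2 and 2.54.

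Counted as a share of the domain, the overlap with replicate 2 was mostly large. Over all 754 domains, replicate 2 peaks covered a median of 99.9% of a domain, and 376 domains (49.9%) lay wholly inside them. Under 50% was covered in 13 domains. Counted both ways the overlap was smaller, and 505 domains remained where each peak had to cover at least 50% of the other. The smallest overlap was 2 bp, at III:11690165-11691822. It was 99 bp at III:12903450-12904548, and 235 bp in the 13925 bp domain at III:4915421-4929345. The most divided domain named above was covered over 1993 of its 13332 bp. Just outside the rule, the nearest replicate 1 peaks without a counterpart were III:12551947-12553026, III:585238-586317 and III:10678658-10679721, which lay 14, 39 and 95 bp from a replicate 2 peak.

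Some broad peaks were listed in a single replicate. In replicate 1 the widest without a counterpart was III:9050043-9071126 (21084 bp), 756 bp from the nearest replicate 2 peak, and it met 15 series-wide peaks. The next were III:13640796-13658395 (17600 bp, 1473 bp away, 15 series-wide peaks) and III:7698815-7712363 (13549 bp, 10656 bp away, 5 series-wide peaks). In replicate 2 they were III:6198488-6210964 (12477 bp, 29146 bp from a replicate 1 peak, 11 series-wide peaks), III:566558-578085 (11528 bp, 7152 bp away, 11 series-wide peaks) and III:12724617-12733417 (8801 bp, 3731 bp away, 6 series-wide peaks). No genome sequence was used, so repeats under these peaks were not examined.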

How the data were processed

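Per the submitters' processing notes, BWA was the aligner and ce10 the build. The deposited lists name the build as WormBase WS220, per the file headers. The authors deposited a peak list for each precipitated sample, called with a program named MACS, and a series-wide list called with MACS v2, per the caller named on each line. Program settings, the control used, and how the series-wide list was made are not given in the sources. The score column was not used.

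The first and last base (1-based) of each peak were read and compared in Python 3.11.15 with the packages numpy 2.4.6, pandas 2.3.3 and scipy 1.17.1. Figures used matplotlib 3.10.9. No peak of chromosome III was filtered out. Peaks were placed by midpoint in outer parts and windows, and gaps were counted from end to start. Functions were tested on simulated lists. The members and the rules for clusters, windows and named regions were chosen with earlier results of these data known. Named regions were the 5 widest domains, the 5 largest clusters, the 5 longest gaps, 3 windows at each extreme, the 3 most divided domains, the 3 widest peaks of each replicate without a counterpart, and 3 on each side of the overlap threshold.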

Additional observations from a re-analysis of the deposited data

How the results depend on the processing

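Of 60 values computed under other settings, 33 differed from the reported value by less than the SD between the 2 replicate lists. For the number of domains the limit was 1.5 times in place of the SD. The other 27 differed by more. By the SD, which was 135 domains, the 505 domains left with 50% overlap would also have counted as differing. The SD rests on 2 lists that also served as the single-replicate settings, so these counts are no measure of stability. A change of direction was defined only for the ratio of right to left, and it occurred in 0 cases. Settings that merge or select peaks moved widths and gaps. The median width (2307.5 bp) was 2707 bp where each peak had to cover 50% of the other, 2984 bp over replicate 2 peaks, 2676 bp with peaks less than 200 bp apart merged, and 2949.5 bp with domains joined across spanned gaps, a setting added after the data were seen. In the same order the median gap (3913 bp) was 9476.5, 5320, 5633.5 and 7167 bp, the first of these over 505 domains. The share in clusters was 35.4% with 50% overlap, 49.3% with merging, 41.2% with joining, and 31.4% and 70.7% with gap limits of 2 and 10 kb. Series-wide peaks per domain (2.62) were 3.40 over replicate 2 peaks and also with joining, 2.99 with merging and 2.48 counted by midpoint. The ratio of right to left (1.45) was 1.15 in the series-wide list and between 1.25 and 1.53 under the settings that kept both replicates. The coefficient of variation over windows (0.36) was 0.28 in 500 kb and 0.56 in 100 kb windows. With a single replicate the ranges were 825 to 1016 peaks, 2145.5 to 2200 bp in width, 2802 to 3490.5 bp in gap, 56.8 to 65.6% in clusters, 1.06 to 1.45 for right to left, 2.58 to 2.73 series-wide peaks and 0.27 to 0.33 for the variation. The cause of these differences was not tested. A stricter score threshold was not tried, since the score was not used. No paired analysis was possible because the results come from no test.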

Other observations

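Replicate 2 listed more peaks than replicate 1 on chromosome III, and the excess was not spread evenly along it. The ratio of replicate 2 to replicate 1 peaks was 0.975 in the right outer part (232 and 238), 1.34 in the left (219 and 164) and 1.34 in the centre (565 and 423). By covered bases the ratio was 1.14 in the right outer part, 1.29 in the left and 1.40 in the centre. On the other chromosomes the ratio of peak numbers in the right and left outer parts was 1.05 and 1.10 on I, 1.15 and 1.15 on II, 1.22 and 1.21 on IV, 1.06 and 1.07 on V, and 1.43 and 1.37 on X. The centre had the highest ratio on those 5 chromosomes, from 1.33 on I to 1.77 on X. The difference between the outer parts of III was not tested, and the choice to look at it was made after the values were seen.

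Series-wide peaks of chromosome III that met neither replicate list numbered 620 of 3628 (17.1%), with a median width of 225 bp, beside 615.5 bp for the 1850 that met both. They made up 20.7% of the series-wide peaks in the right outer part, 23.2% in the left and 12.4% in the centre. The share meeting neither list ranged from 13.3% (X) to 18.6% (IV) among the other chromosomes. Their median widths ranged from 216.5 bp (V) to 232 bp (IV), so III lay within both ranges. At the ends of the chromosome the series-wide list held a peak at III:1-210 and another at III:13783386-13783737, while the first peak began at 68861 in replicate 1 and at 25198 in replicate 2, and the last ended at 13772469 and 13775291.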
